A study of Mus musculus with 13 samples.

Results

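The genes described here are 9 mouse genes of inflammatory and lytic cell death, chosen by name from the liver count table: the inflammatory caspases *Casp1*, *Casp4* and *Casp12*, the initiator caspase *Casp8*, the bacterial sensors *Naip2* and *Naip5*, the pore-forming protein *Gsdmd*, and the necroptosis genes *Ripk3* and *Mlkl*. They are 9 of the 53465 genes in the table. Liver RNA was compared between 6 WT and 7 *Nod2*-/- male mice, 1 library per mouse. All 13 mice were of the BALB/c strain, all had been given the carcinogen DMBA (dimethylbenz[a]anthracene) and kept on a high-fat diet, for 30 weeks in the labels, and all livers are labelled as cancer. Whether each sequenced liver held tumours, or how much tumour tissue was taken, is not given per mouse in the sources used here. The paper reported liver tumours in a larger share of *Nod2*-/- than of WT males under this treatment. Genotype and tumour burden therefore cannot be told apart in these data. *Nod2*-/- mice lack *Nod2*, a cytosolic receptor for bacterial peptidoglycan, in every cell. The genotypes were bred as separate lines in the same room, without littermate controls, so genotype and breeding line cannot be told apart.

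Lytic death ends with a membrane that leaks and releases the contents of the cell. In pyroptosis, sensors such as the NAIP proteins recruit caspase-1, or bacterial lipopolysaccharide activates caspase-11 (the product of mouse *Casp4*) directly, and these caspases cut gasdermin D, whose freed end forms pores. In necroptosis, the kinase RIPK3 phosphorylates MLKL, which then breaks the membrane, while caspase-8 cuts proteins of this pathway and holds it back, besides starting apoptosis. In the liver, caspase-8 and gasdermin D are made by hepatocytes and other cells, whereas inflammatory caspases and RIPK3 are best known from leukocytes and macrophages.

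The counts of a library summed to 14886273 to 20579984 in WT mice and to 13824780 to 19391431 in *Nod2*-/- mice. The *Nod2* transcript had 0 to 4 counts in WT and 1 to 6 counts in *Nod2*-/- libraries, too few to check the genotypes. The liver label was met by hepatocyte genes, of which 9 of 9 were tested, with a summed level of at least 84040.3 CPM (counts scaled to a common library total) in every mouse. *Nod2*-/- replicate 7 stood apart. Its 14 neutrophil markers summed to 4314 CPM, against at most 1046 CPM in the other *Nod2*-/- mice and at most 135 CPM in WT mice, where replicate 3 was the highest. This mouse had the highest normalized count of the 7 *Nod2*-/- mice for 8 of the 9 genes, and for 6 of them WT replicate 3 topped the WT mice. For *Mlkl* the lead of *Nod2*-/- replicate 7 was small (229 against 226 in the next mouse). How often these 2 mice were the highest over all genes is not given here.

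Counts were brought to the mean library size after TMM normalization and are called normalized counts. All 9 genes passed the expression filter. At 5% FDR in edgeR's quasi-likelihood test, adjusted over 13545 genes, 2 of the 9 genes (*Gsdmd* and *Mlkl*) had higher expression in *Nod2*-/- mice, and 1 (*Casp8*) had lower expression. Of all genes tested, 0.650% were called higher and 0.509% lower. For these 3 genes the normalized counts of the genotypes did not overlap, which was so for 1.44% of all genes. The other 6 genes had higher means in *Nod2*-/- mice but did not pass. The median log2 fold change of the 9 genes was 1.07, against 0.02 over all genes tested. At an unadjusted p under 0.05, 7 genes were higher and 1 was lower, where 1743 and 1384 of all genes tested, together 23.1%, were past that p. These counts and the median describe a list that was chosen with earlier results of these data known. The paper had already named *Casp4*, *Casp12*, *Naip2* and *Naip5* among its genes with altered expression.

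**Figure D1:**
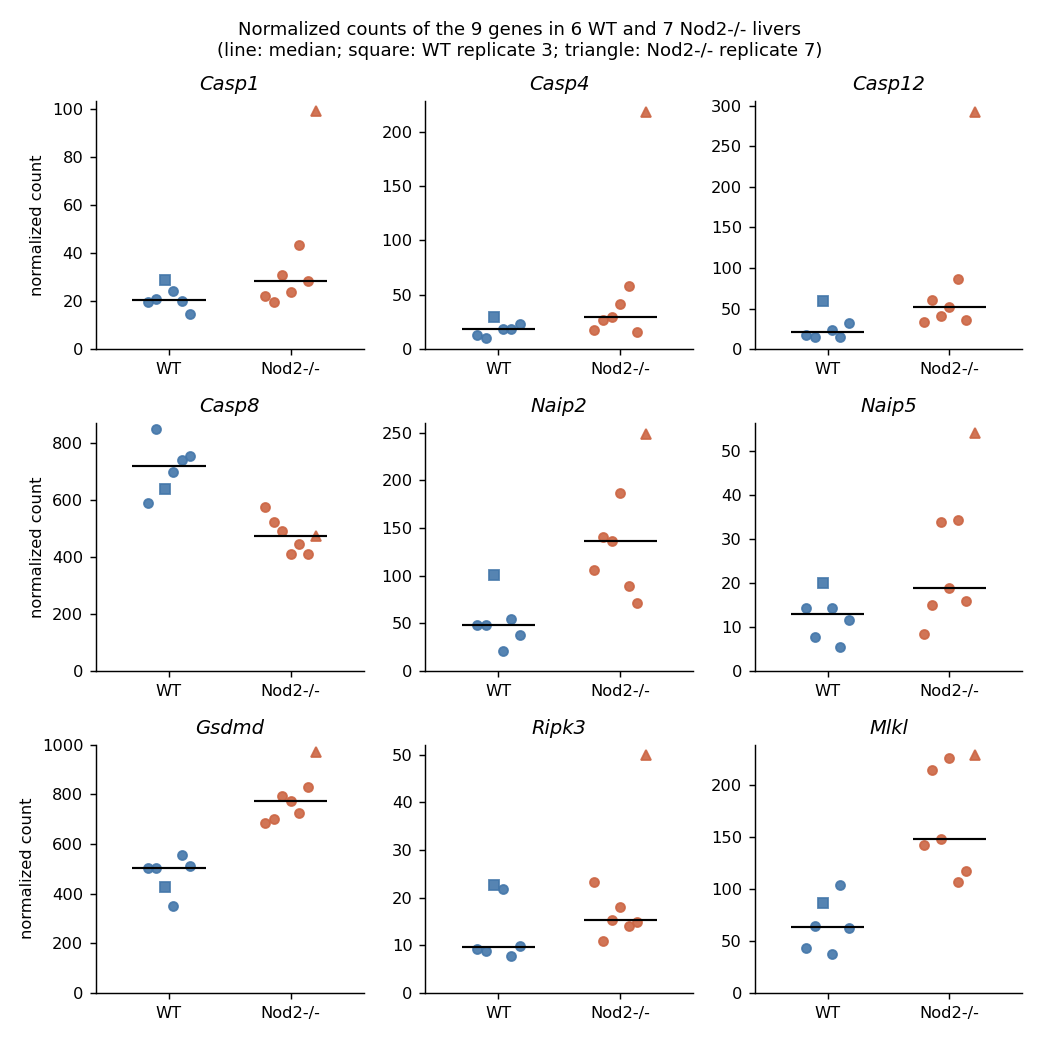
Normalized count (vertical axis, linear from 0) of each of the 9 genes in 6 WT (blue) and 7 Nod2-/- (orange) livers; each point is 1 mouse, the line is the group median, the square is WT replicate 3 and the triangle is Nod2-/- replicate 7. The genotypes do not overlap for Casp8, Gsdmd and Mlkl, and Nod2-/- replicate 7 lies far above the other mice for Casp1, Casp4, Casp12 and Ripk3.

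The stretches just before the start sites are shown for the 2 genes past 5% FDR that have an entry (*Casp8* and *Mlkl*), and for *Casp4* and *Casp12*, neighbours on chromosome 9 with similar profiles across the mice. The sequences are RefSeq's, build GRCm38.p6, and hold the 250 bases before the annotated start, 5′ to 3′. The RefSeq start of *Casp8* lies inside the gene as GENCODE draws it. Of the 9 genes, 8 have an entry, and *Gsdmd* has none. Capitals mark matches to NF-kB (GGNNTTTCC), GAS (TTCNNNGAA) or AP-1 (TGANTCA) motifs on either strand, which do not overlap each other here.

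*Casp8* (chr1:58802252-58802501, plus strand): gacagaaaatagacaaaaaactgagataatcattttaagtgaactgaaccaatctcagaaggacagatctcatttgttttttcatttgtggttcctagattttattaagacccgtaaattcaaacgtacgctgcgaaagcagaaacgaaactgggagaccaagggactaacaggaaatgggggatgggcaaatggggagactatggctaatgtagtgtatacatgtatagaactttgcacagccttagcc

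*Mlkl* (chr8:111338206-111338455, minus strand): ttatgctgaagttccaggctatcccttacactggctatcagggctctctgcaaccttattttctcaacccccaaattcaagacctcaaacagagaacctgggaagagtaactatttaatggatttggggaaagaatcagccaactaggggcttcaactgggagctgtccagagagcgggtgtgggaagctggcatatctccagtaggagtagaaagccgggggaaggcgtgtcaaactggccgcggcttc

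*Casp4* (chr9:5308599-5308848, plus strand): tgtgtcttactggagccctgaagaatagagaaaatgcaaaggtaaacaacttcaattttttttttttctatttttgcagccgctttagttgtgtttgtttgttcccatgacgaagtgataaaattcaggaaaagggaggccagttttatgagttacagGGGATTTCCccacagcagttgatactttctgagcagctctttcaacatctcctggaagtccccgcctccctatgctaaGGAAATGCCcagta

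*Casp12* (chr9:5345226-5345475, plus strand): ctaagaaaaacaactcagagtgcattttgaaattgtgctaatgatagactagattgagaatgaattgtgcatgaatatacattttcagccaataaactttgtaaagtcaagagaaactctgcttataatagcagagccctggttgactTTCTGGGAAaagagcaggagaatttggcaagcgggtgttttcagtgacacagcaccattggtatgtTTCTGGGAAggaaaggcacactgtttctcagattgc

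Motifs were searched in windows of 250 bases before to 50 bases after the start. *Casp4* held 2 NF-kB matches, whose first bases lie at -92 and -14 from the start site, and *Casp12* held 2 GAS matches, at -102 and -36. Of 32851 RefSeq windows, 5.82% held the NF-kB letters and 8.30% the GAS letters. The AP-1 letters (7.81% of windows), CRE (TGACGTCA, 1.79%) and AARE (TGATGNAA, 3.97%) were in none of the 8 genes' windows. An IRF motif (AANNGAAA) was in 3 of the 8, a C/EBP motif (TTNNGNAA) in 3 and the letters TGANNNNGC in 6, against 23.9%, 40.7% and 41.3% of all windows. These matches are letters only, and binding was not measured.

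*Gsdmd*, which encodes gasdermin D, the pore-former of pyroptosis, had higher expression in every *Nod2*-/- mouse than in any WT mouse. *Gsdmd* (ENSMUSG00000022575.4) lies on chromosome 15, 75862327 to 75867408, plus strand, of GRCm38. Its normalized count was 349 at the lowest, 504 at the median and 554 at the highest in WT mice, and 687, 774 and 970.2 in *Nod2*-/- mice. The lowest *Nod2*-/- mouse thus lay above the highest WT mouse. Means were 475 ± 74.2 (SD, n = 6) and 784 ± 96.9 (SD, n = 7). This gave a log2 fold change of 0.72 (SE 0.11, edgeR adjusted p = 0.00622). A two-sided exact permutation test over the 13 mice gave p = 5.83e-04, the smallest that 6 against 7 mice allow. Leaving out 1 mouse at a time, *Gsdmd* stayed past 5% FDR in 13 of 13 fits, with log2 fold changes of 0.65 to 0.77.

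*Mlkl*, the membrane-breaking effector of necroptosis, was also higher in every *Nod2*-/- mouse than in any WT mouse. *Mlkl* (ENSMUSG00000012519.14) lies on chromosome 8, 111311797 to 111338177, minus strand, 22.6 Mb from *Nod2*. Of the 62 other tested genes within 5 Mb of *Mlkl*, 0 passed 5% FDR. Within 25 Mb of *Nod2*, 6 of 398 tested genes passed (1.51%), against 1.16% of all genes. The part of position in the *Mlkl* values was not tested. The normalized count of *Mlkl* was 37.3 at the lowest, 63.5 at the median and 104 at the highest in WT mice, and 107, 148 and 229 in *Nod2*-/- mice. The highest WT mouse, replicate 5, came close to the lowest *Nod2*-/- mouse, also replicate 5. The 7 *Nod2*-/- mice lay as 4 mice at 107 to 148 and 3 mice (replicates 2, 4 and 7) at 214 to 229. Means were 66.3 ± 25.4 (SD, n = 6) and 169 ± 52.7 (SD, n = 7). This gave a log2 fold change of 1.35 (SE 0.26, edgeR adjusted p = 0.0284). The exact permutation p was 0.00233 (two-sided). With 1 mouse left out, *Mlkl* stayed past 5% FDR in 8 of 13 fits. It was lost without WT replicate 1, 2 or 4 (edgeR adjusted p = 0.0723, 0.0790 and 0.0692) and without *Nod2*-/- replicate 4 or 7 (edgeR adjusted p = 0.0588 and 0.0567), with log2 fold changes of 1.23 to 1.34 in those fits.

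*Ripk3*, the kinase that activates MLKL, did not differ detectably between the genotypes. *Ripk3* (ENSMUSG00000022221.14; chromosome 14, 55784995 to 55788865, minus strand) had normalized counts of 7.73, 9.53 and 22.6 (lowest, median and highest) in WT mice and of 10.9, 15.4 and 50 in *Nod2*-/- mice. The groups overlapped, with 2 *Nod2*-/- mice above the highest WT mouse. The log2 fold change was 0.64 (SE 0.39, edgeR adjusted p = 0.340; two-sided exact permutation p = 0.248), and 0.26 without *Nod2*-/- replicate 7. A library held 7 to 51 counts of *Ripk3*, and the parts of depth and of spread between mice in the SE were not tested. Around *Ripk3*, 12 of the 116 other tested genes within 5 Mb passed 5% FDR (10.3%), against 1.16% of all genes, and the part of this neighbourhood in the *Ripk3* values was not tested.

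*Casp8*, whose product starts apoptosis and restrains necroptosis, was the only one of the 9 genes with lower expression in *Nod2*-/- mice. *Casp8* (ENSMUSG00000026029.14) lies on chromosome 1, 58795374 to 58847503, plus strand. Its normalized count was 590.4 at the lowest, 719 at the median and 849 at the highest in WT mice, and 412, 473 and 575 in *Nod2*-/- mice. Every *Nod2*-/- mouse lay below every WT mouse. Means were 712 ± 91.3 (SD, n = 6) and 476 ± 60.0 (SD, n = 7). The log2 fold change was -0.58 (SE 0.10, edgeR adjusted p = 0.0170), and the exact permutation p was 5.83e-04 (two-sided). *Casp8* stayed past 5% FDR in 13 of 13 fits with 1 mouse left out, with log2 fold changes of -0.64 to -0.52. Of the 59 other tested genes within 5 Mb of *Casp8*, 3 passed 5% FDR (5.08%), against 1.16% of all genes. The part of this neighbourhood in the *Casp8* values was not tested. In whole liver, fewer cells of a type and less RNA per cell cannot be told apart, for this gene as for the others.

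Per length of transcript, *Casp8* and *Gsdmd* were the most abundant of the 9 genes in both genotypes, and their order turned. In CPM per kilobase of exon, *Casp8* had a level of 14.8 ± 1.90 (SD, n = 6) and *Gsdmd* a level of 12.1 ± 1.88 in WT mice, with overlapping ranges, and *Casp8* lay above *Gsdmd* in 5 of the 6 mice. In *Nod2*-/- mice the levels on the same scale were 9.92 ± 1.25 (SD, n = 7) for *Casp8* and 19.9 ± 2.46 for *Gsdmd*, and *Casp8* lay above *Gsdmd* in 0 of the 7 mice. *Mlkl* followed with levels of 1.74 ± 0.666 and 4.43 ± 1.38, below both genes in every mouse, and its range overlapped that of *Casp1* or *Naip2*, the next in the order. The remaining 6 genes had mean levels of 0.141 (*Naip5*) to 0.859 (*Casp1*) in WT mice and 0.298 (*Naip5*) to 1.74 (*Naip2*) in *Nod2*-/- mice. Among these 6 the ranges of neighbours in the order overlapped.

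**Figure D2:**
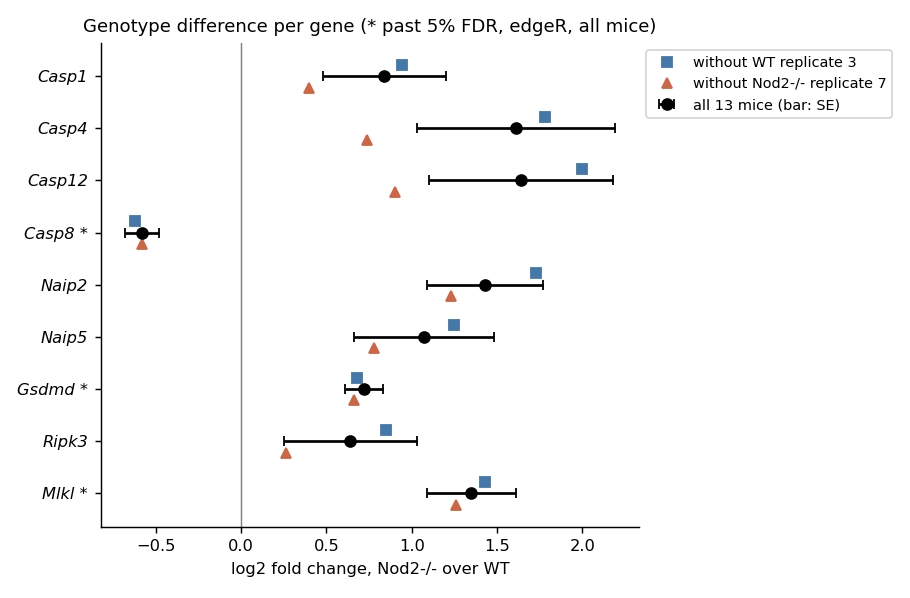
Log2 fold change of Nod2-/- over WT (horizontal axis) for each of the 9 genes from edgeR, with all 13 mice (black, bar: SE), without WT replicate 3 (blue squares) and without Nod2-/- replicate 7 (orange triangles). Gsdmd, Casp8 and Mlkl hardly move when either mouse is left out, whereas Casp4 falls from 1.61 to 0.74 and Casp12 from 1.64 to 0.90 without Nod2-/- replicate 7.

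*Casp1*, *Casp4* and *Casp12*, the inflammatory caspases, lie side by side within 74.5 kb of chromosome 9, on the plus strand. Their means were higher in *Nod2*-/- mice, but none of the 3 passed 5% FDR. *Casp12* (ENSMUSG00000025887.10; 5345430 to 5373032), a caspase of the inflammatory group whose role is less settled, had normalized counts of 15.4, 20.8 and 58.7 (lowest, median and highest) in WT mice and of 33.8, 51.9 and 292 in *Nod2*-/- mice. All 7 *Nod2*-/- mice lay above the WT median, and 3 lay above the highest WT mouse. Its log2 fold change was 1.64 (SE 0.54, edgeR adjusted p = 0.106; two-sided exact permutation p = 0.0472). It was 0.90 without *Nod2*-/- replicate 7 (edgeR adjusted p = 0.206) and 2.0 without WT replicate 3, where *Casp12* passed (edgeR adjusted p = 0.0459).

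*Casp4* (ENSMUSG00000033538.13; 5308828 to 5336783), the intracellular sensor of lipopolysaccharide that cuts gasdermin D, had normalized counts of 9.87, 18.7 and 29.8 (lowest, median and highest) in WT mice and of 15.9, 29.8 and 218 in *Nod2*-/- mice. Without replicate 7 the highest *Nod2*-/- mouse had 58.0. The groups overlapped, with 5 of 7 *Nod2*-/- mice above the WT median. *Casp4* had a log2 fold change of 1.61 (SE 0.58, edgeR adjusted p = 0.127; two-sided exact permutation p = 0.106), and 0.74 without *Nod2*-/- replicate 7 (edgeR adjusted p = 0.271).

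*Casp1* (ENSMUSG00000025888.5; 5298517 to 5307265), the caspase of the canonical inflammasome that matures IL-1β and IL-18, had normalized counts of 14.7, 20.4 and 28.9 (lowest, median and highest) in WT mice and of 19.8, 28.4 and 99.0 in *Nod2*-/- mice. Replicate 7 again lay far above the others, of which the highest had 43.1. This was a log2 fold change of 0.84 (SE 0.36, edgeR adjusted p = 0.186; two-sided exact permutation p = 0.0985), and 0.40 without that mouse. Around each of the 3 caspases, 0 of the 19 other tested genes within 5 Mb passed 5% FDR, where the 19 include the other caspases of the group.

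Within each genotype, neutrophil markers were highest in the same mouse as *Casp1*, *Casp4* and *Casp12*, namely *Nod2*-/- replicate 7 and WT replicate 3. *Nod2*-/- replicate 4 had the next highest markers of all mice (1046 CPM). Its normalized counts of *Casp1*, *Casp4* and *Casp12* were 23.9, 41.9 and 51.9, against *Nod2*-/- medians of 28.4, 29.8 and 51.9. Of 14 markers, 6 were tested, 0 passed 5% FDR in edgeR and all 6 had an unadjusted p under 0.05, while DESeq2 called 7 of the 14. No marker was at 0 in all mice. Their summed level was 14, 49.1 and 135 CPM (lowest, median and highest) in WT mice and 69.6, 182 and 4314 CPM in *Nod2*-/- mice. Of the 7 *Nod2*-/- mice, 4 lay above every WT mouse. Monocyte and macrophage markers summed to 62.3 to 159 CPM in WT mice and 71.5 to 347 CPM in *Nod2*-/- mice, and Kupffer cell markers to 100.1 to 171 and 119.8 to 349.9 CPM, both with replicate 7 the highest. Of these lists 9 of 10 and 7 of 7 markers were tested, with 0 past 5% FDR in edgeR, 3 and 2 at an unadjusted p under 0.05, and 1 and 0 called by DESeq2. The part of these cells in the caspase, *Naip* and *Ripk3* values was not tested.

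**Figure D3:**
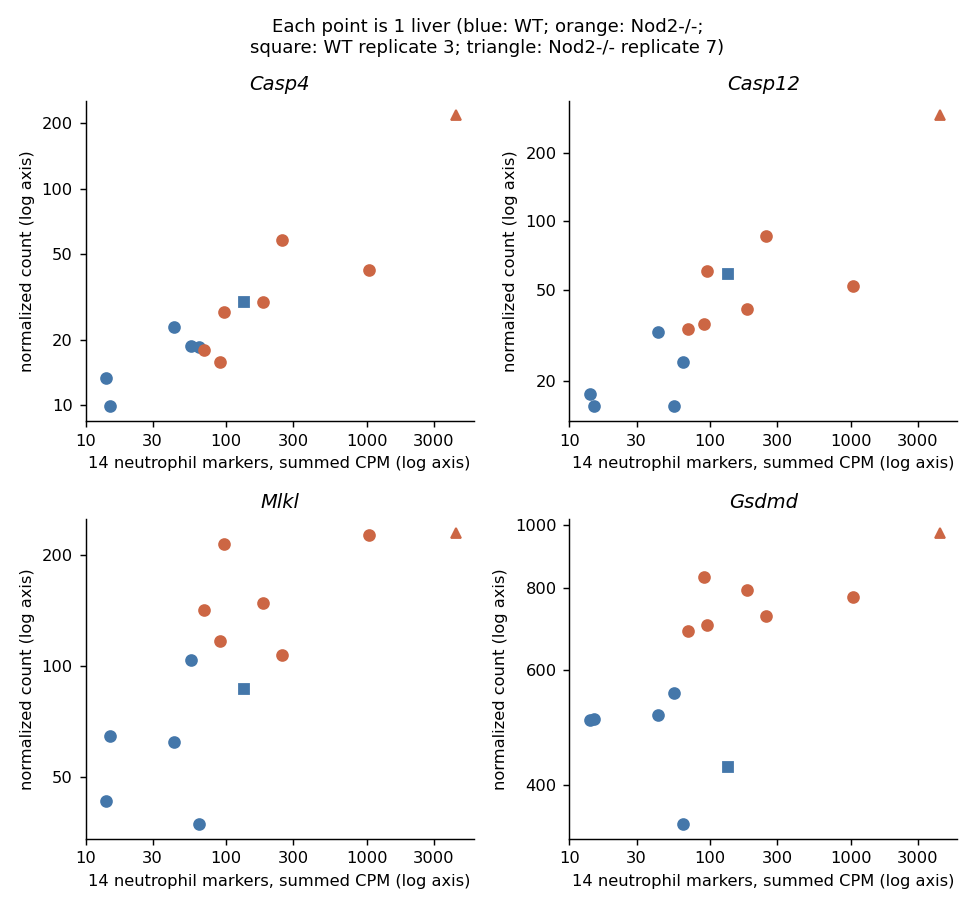
Normalized count of Casp4, Casp12, Mlkl and Gsdmd (vertical, log axis) against the summed CPM of 14 neutrophil markers (horizontal, log axis); each point is 1 liver, WT in blue and Nod2-/- in orange, with WT replicate 3 as a square and Nod2-/- replicate 7 as a triangle. All 4 genes are highest in the mouse with 4314 CPM of neutrophil markers, and for Gsdmd and Mlkl the 7 Nod2-/- mice lie above the 6 WT mice.

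Profiles were compared over the 13 mice as the root mean square difference of log2 CPM, each gene centred on its own mean, among genes whose average log2 CPM was 1 or more. Among the nearest to *Casp4* were *Csf3r*, the receptor for granulocyte colony-stimulating factor (0.37), and *Casp12* (0.37). Among the nearest to *Casp12* were *Casp4* (0.37) and *S100a6* (0.41). Nearest to *Ripk3* were *Otulinl* (0.31), *Cd5l*, a Kupffer cell marker (0.33), and *Mxd1* (0.33). *Mlkl* had other neighbours, namely *Mthfd2*, a mitochondrial folate enzyme (0.35), *Tsc22d4* (0.35) and *Fam126a* (0.36), and so had *Naip2*, namely *Fam126a* (0.33), *Mlkl* (0.37) and *Slc1a4*, a neutral amino acid transporter (0.39). These are descriptions over mice that share a genotype difference and 1 extreme liver.

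*Naip2* and *Naip5* encode cytosolic receptors for bacterial proteins, for the rod protein of type III secretion systems and for flagellin, which act through NLRC4 on caspase-1. Both lie on the minus strand of chromosome 13, separated by 9.65 kb. *Naip2* (ENSMUSG00000078945.10; 100144063 to 100202092) had normalized counts of 20.8, 48.2 and 100.3 (lowest, median and highest) in WT mice and of 71.7, 136 and 249 in *Nod2*-/- mice. Of the 7 *Nod2*-/- mice, 5 lay above the highest WT mouse, replicate 3, and without that mouse the groups would not overlap. The log2 fold change was 1.43 (SE 0.34), just outside the threshold (edgeR adjusted p = 0.0565; two-sided exact permutation p = 0.00466). It was 1.73 without WT replicate 3 (edgeR adjusted p = 0.0166) and 1.23 without *Nod2*-/- replicate 7 (edgeR adjusted p = 0.103).

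*Naip5* (ENSMUSG00000071203.6; 100211739 to 100246323) had normalized counts of 5.52, 12.9 and 19.9 (lowest, median and highest) in WT mice and of 8.46, 18.9 and 53.9 in *Nod2*-/- mice. The groups overlapped, with 3 *Nod2*-/- mice above the highest WT mouse. The log2 fold change was 1.07 (SE 0.41, edgeR adjusted p = 0.144; two-sided exact permutation p = 0.0676). The paralogs share sequence. Of all stretches of 43 bases, the read length, 23.2% in *Naip2* transcripts and 42.4% in *Naip5* transcripts also occur in transcripts of another gene, so the split of reads between them is uncertain. With the counts of the *Naip* genes summed to 1 gene, the log2 fold change was 1.33 (SE 0.30) and passed 5% FDR (edgeR adjusted p = 0.0466). Mean normalized counts were 51.6 (WT) and 139.9 (*Nod2*-/-) for *Naip2*, against 12.2 and 25.8 for *Naip5*. The sum was thus mostly *Naip2* and says little about *Naip5*. Both genes also share stretches with *Naip3*, which is not in the gene lists used here, so the sum does not settle the split of reads. Just before their start sites *Naip2* and *Naip5* share a run of 34 bases, which begins at -39 in *Naip2* and is shown for the likeness of the pair.

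*Naip2* and *Naip5* shared run: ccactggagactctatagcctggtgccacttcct

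Of the other 7 genes, *Casp8* shared 5.33% of its 43-base stretches with another gene (*Gm20257*), *Casp4* 0.507%, and the rest none. No exon of the 9 genes overlapped an exon of another annotated gene.

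Pairs of these genes were compared within each mouse as the log2 ratio of counts, in 4 planned pairs. *Mlkl* relative to *Gsdmd* was higher by 0.64 in *Nod2*-/- mice, from -2.91 ± 0.47 (SD, n = 6) to -2.26 ± 0.44 (SD, n = 7), which did not pass after adjustment over the 4 pairs (two-sided exact permutation p = 0.0297, adjusted p = 0.119). The difference was 0.78 for *Mlkl* to *Ripk3* (exact permutation p = 0.118, adjusted p = 0.237), 0.53 for *Naip2* to *Naip5* (exact permutation p = 0.284, adjusted p = 0.284) and 0.45 for *Casp4* to *Casp1* (exact permutation p = 0.213, adjusted p = 0.284). None of these 4 pairs, which did not include *Casp8*, was therefore shown to differ in its response.

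In all, 8 lists of 68 genes, the 9 genes among them, held 51 tested genes, of which *Casp8*, *Gsdmd* and *Mlkl* were the only genes past 5% FDR in edgeR. Of the 42 other tested genes, 0 passed in edgeR and 0 in DESeq2 with its own filter, while 1 passed in DESeq2 on the genes of the edgeR filter (*Birc3*, DESeq2 adjusted p = 0.0493) and 1 with voomWithQualityWeights (*Bcl2l11*, limma adjusted p = 0.0343). Of these 42 genes, 10 were higher in *Nod2*-/- mice and 0 lower at an unadjusted p under 0.05 in edgeR. Of the 13545 genes tested, 1743 were higher and 1384 lower at that p. The median log2 fold change of the 42 genes was 0.18, against 0.02 over all genes tested. Without WT replicate 3, 2 of these genes passed, *Bcl2l11* and *Apaf1*, both of mitochondrial apoptosis, with log2 fold changes of 1.23 and 0.74 (edgeR adjusted p = 0.0178 and 0.0355). With *Nod2*-/- replicate 7 also left out, 1 passed, *Bcl2l11*, with 1.18 (edgeR adjusted p = 0.0304).

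Of 9 tested caspases, 1 was lower and 0 were higher past 5% FDR. After the 4 caspases above, *Casp2* had the smallest p, with 99.1 ± 12.7 (SD, n = 6) and 121 ± 11.3 (SD, n = 7) normalized counts (edgeR adjusted p = 0.156). *Casp14*, a caspase of the skin, had no count in any mouse. Of 14 inflammasome sensors and adaptors, 7 were tested and 0 passed. After the *Naip* genes came *Aim2*, a sensor of cytosolic DNA, with 9.53 ± 3.99 (SD, n = 6) and 16.9 ± 9.95 (SD, n = 7) normalized counts (edgeR adjusted p = 0.246). *Nlrc4*, the partner of the NAIP proteins, was too low to be tested, with means of 4.0 and 4.72 normalized counts, and *Nlrp1a* had at most 3 counts in every mouse.

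Of 10 gasdermin and membrane rupture genes, 3 were tested, and *Gsdmd* alone passed. *Gsdme*, another gasdermin, had 31.1 ± 6.33 (SD, n = 6) and 33.8 ± 16.2 (SD, n = 7) normalized counts (edgeR adjusted p = 0.844). *Ninj1*, whose product tears the membrane of dying cells, had 2085 ± 296 (SD, n = 6) and 2032 ± 217 (SD, n = 7) (edgeR adjusted p = 0.860). A further 7 gasdermins (*Gsdma*, *Gsdma2*, *Gsdma3*, *Gsdmc*, *Gsdmc2*, *Gsdmc3* and *Gsdmc4*) had at most 3 counts in every mouse. Of 9 necroptosis genes, all tested, *Mlkl* alone passed. Next were *Tnfrsf1a*, the TNF receptor that starts the pathway, with a log2 fold change of 0.39 (edgeR adjusted p = 0.117), and the adaptor *Tradd* with 0.24 (edgeR adjusted p = 0.294).

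Of 6 inhibitors of lytic death, 0 passed. The smallest p belonged to *Birc3*, a ubiquitin ligase that keeps RIPK1 in its survival complex, with a log2 fold change of 0.56 (edgeR adjusted p = 0.101). *Serpinb1a*, an inhibitor of neutrophil proteases, had 1.42 (edgeR adjusted p = 0.273), and 0.15 without *Nod2*-/- replicate 7. *Il18bp*, which binds IL-18, had 0.56 (edgeR adjusted p = 0.288), and 0.23 without that mouse. Of the 3 cytokines that inflammasomes act on or accompany, 0 passed. *Il1b* had a log2 fold change of 1.41 (edgeR adjusted p = 0.147) and 0.66 without *Nod2*-/- replicate 7, *Il18* had 0.07 (edgeR adjusted p = 0.861), and *Il1a* had -0.01 (edgeR adjusted p = 0.982).

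Of 5 tested interferon-inducible GTPases, a group in which some members expose bacterial lipopolysaccharide to caspase-11, 0 passed. The median log2 fold change of the 5 was 0.00. Those with the smallest p were *Gbp7* (-0.31, edgeR adjusted p = 0.416), *Irgm2* (-0.21, edgeR adjusted p = 0.494) and *Gbp2* (0.24, edgeR adjusted p = 0.673). Of 9 tested genes of mitochondrial apoptosis, 0 passed. At an unadjusted p under 0.05, 5 were higher and 0 lower, where 1743 and 1384 of all 13545 genes tested were. A log2 fold change above 0 was seen in 9 of 9, against 52.3% of all genes. The pore-former *Bax* had 0.33 (edgeR adjusted p = 0.113), *Bbc3*, a p53 target that frees it, had 0.90 (edgeR adjusted p = 0.118), and the protective *Mcl1* had 0.26 (edgeR adjusted p = 0.133).

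**Figure D4:**
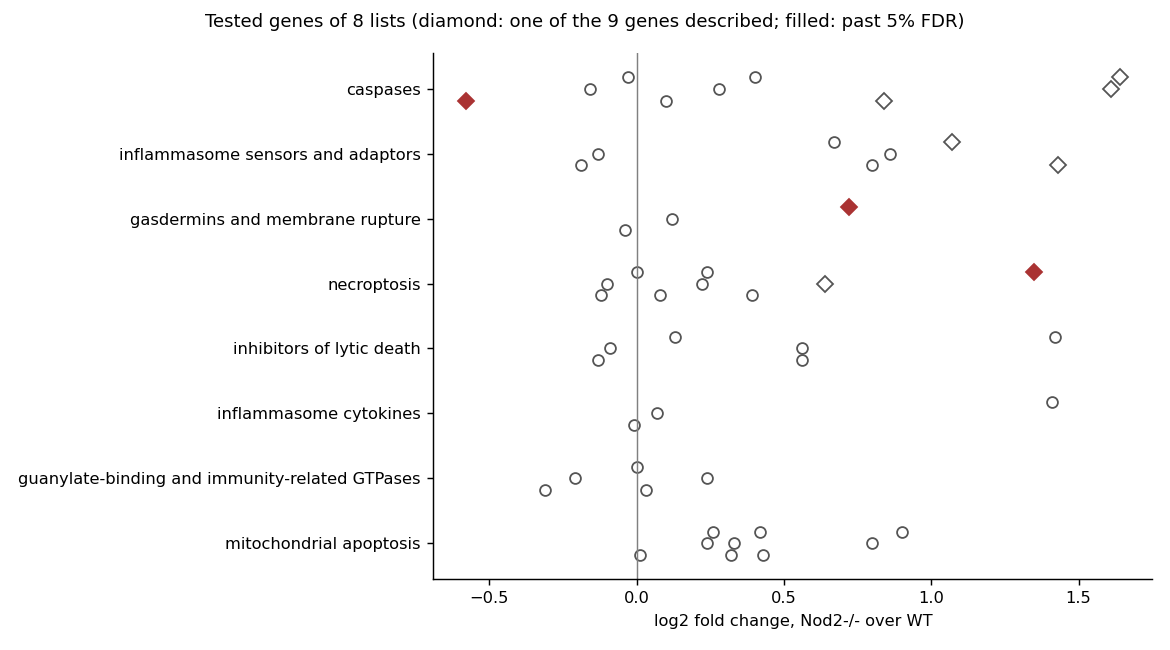
Log2 fold change of Nod2-/- over WT (horizontal axis) for the 51 tested genes of 8 lists, one point per gene; diamonds are the 9 genes described, and filled red points passed 5% FDR in edgeR. The filled points are Casp8 at -0.58, Gsdmd at 0.72 and Mlkl at 1.35.

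The number of these genes called depended on the test and on which mouse was left out. DESeq2 called 6 of the 9 genes, adding *Casp4*, *Casp12* and *Naip2* (DESeq2 adjusted p = 0.0451, 0.0252 and 0.00209), where it called 7.26% of all genes in either direction. The paper, which also used DESeq2, had named the added genes as altered in these mice, so this count is not independent of it. *Naip5*, which the paper had named as well, was not called (DESeq2 adjusted p = 0.0969). Without WT replicate 3, edgeR called 5 of the 9, adding *Casp12* and *Naip2*, where it called 8.49% of all genes. Without *Nod2*-/- replicate 7 it called 2, *Casp8* and *Gsdmd*, where it called 0.403% of all genes. The direction of all 9 genes was the same in each of these fits.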

How the data were processed

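Liver RNA of 6 WT and 7 *Nod2*-/- mice was sequenced. The authors used Trimmomatic 0.33 for trimming and TopHat2 2.1.1 for mapping to GRCm38, and deposited whole-number counts per gene, without normalization. The counting program and its use of strand and of reads that map to several places are not given in the sources used here. Genes kept by filterByExpr (13545 of 53465, holding 99.9% of counts) were tested with edgeR 4.0.16 (R 4.3.3; TMM, glmQLFit and glmQLFTest, no covariate, two-sided) with Benjamini-Hochberg adjustment at 0.05. Single genes and ratios (pseudocount 0.5) were also compared by exact permutation over 1716 splits of the mice. Positions and exon lengths come from GENCODE release 21, where the study used release 16. Scripts were tested on simulated data. P-values weigh the genotype difference against the spread between mice, from which counting error was not separated. Each of 36 library pairs within a genotype differed by more than sampling noise (chi-square of at least 10.7 per degree of freedom).

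The members and lists were chosen with earlier results of these data known. Genes are named by 3 rules: the 9 members, in each list the genes past 5% FDR, the 3 with the smallest p and those with at most 3 counts in every mouse, and the 3 profiles nearest to *Casp4*, *Casp12*, *Naip2*, *Mlkl* and *Ripk3*, of which 1 gene is not reported here. *Nlrc4*, *Bcl2l11* and *Apaf1* were named after their values were seen. Marker lists also covered T, NK and B cells, endothelium, stellate cells, cholangiocytes and lung epithelium. The alternatives were DESeq2 1.42.0, with its own filter and on the genes of the edgeR filter, voomWithQualityWeights (limma 3.58.1), RLE, other filters on low counts, a robust fit, the replicate number as a block, 1 surrogate variable (sva 3.50.0), summed *Naip* counts and leaving out mice.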

Additional observations from a re-analysis of the deposited data

Results flagged for a closer look

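Normalized counts of 26 genes and the 4 ratios were checked in each genotype (60 groups) for 1 mouse far from the rest. Chance alone flags about 1 in 20 groups. In 10 cases the gap between an extreme mouse and its nearest neighbour took up more of the range of its group than Dixon's critical value allows, and in 8 of them the mouse was *Nod2*-/- replicate 7 at the top.

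Among the genes described, *Nod2*-/- replicate 7 stood apart for *Casp1* (99.0 normalized counts), *Casp4* (218), *Casp12* (292) and *Ripk3* (50). The same mouse stood apart for *Il1b* (199), *Il1a* (67.6), *Il18bp* (431) and *Serpinb1a* (171). In WT mice, replicate 3 was far above the rest for *Irgm2* (1547 normalized counts), and replicate 2 was far below the rest for *Bbc3* (21.9). *Casp8*, *Naip2*, *Naip5*, *Gsdmd* and *Mlkl* had no such mouse in either genotype. *Nod2*-/- replicate 7 also had the highest sum of neutrophil markers (4314 CPM), and the part of these cells in its values was not tested.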

How the results depend on the processing

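Of the single-gene results under other settings, 190 kept their direction and side of the threshold, 13 passed where the main test did not, 8 no longer passed, and none reversed. Against 3 of the 9 genes in the main test, DESeq2 called 6, with its own filter and on the genes of the edgeR filter, 5 were called with WT replicate 3 and *Nod2*-/- replicate 7 both left out, and leaving out 1 mouse gave 2 to 5. Of the list genes, 3 were called in the main test, against 6 with DESeq2, 7 with DESeq2 on the genes of the edgeR filter, 5 with voomWithQualityWeights, 6 with both mice left out, and 2 to 7 with 1 mouse left out. Of all genes, 157 were called, against 1154 with DESeq2, 1153 on the genes of the edgeR filter, 843 with voomWithQualityWeights, 716 with 1 surrogate variable, 567 with both mice left out, and 41 to 1156 with 1 mouse left out (the highest without WT replicate 3). The cause was not tested. *Naip2* also passed with voomWithQualityWeights (adjusted p = 0.0166), with no filter on low counts (0.0478) and with 1 surrogate variable (0.0305). The ratios ranged over 0.29 to 0.63 (*Casp4* to *Casp1*), 0.46 to 1.05 (*Mlkl* to *Ripk3*), 0.24 to 0.77 (*Naip2* to *Naip5*) and 0.52 to 0.77 (*Mlkl* to *Gsdmd*) with 1 mouse left out, and none passed after adjustment under any alternative.

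With the replicate number as a replicate block, 0 of the 9 genes, 0 of the list genes and 35 of all genes were called. *Casp8*, *Gsdmd* and *Mlkl* kept log2 fold changes of -0.58, 0.67 and 1.27 (edgeR adjusted p = 0.110, 0.0687 and 0.134). The ratio differences over the 6 same-numbered pairs were 0.30, 0.93, 0.59 and 0.61 in the order above. Deviations of same-numbered mice correlated by -0.29 to 0.28, over 0.1 for 1 of the 6 numbers. These few correlations cannot show whether same-numbered mice shared anything besides the number. *Nod2*-/- replicate 7 has no same-numbered WT mouse, so it added nothing to the genotype difference in the block fit. Counts are fewest for *Casp1*, *Casp4*, *Naip5* and *Ripk3*, with under 35 counts in every WT library, and counting error was not separated from spread between mice.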

Other observations

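Markers of cell types not described above varied between mice. Lung epithelium markers summed to 12.9, 36.0 and 183 CPM (lowest, median and highest) in WT mice, with replicate 4 the highest, and to 2.30, 4.90 and 28.9 CPM in *Nod2*-/- mice. Of these 6 markers, 4 were tested and 0 passed 5% FDR in edgeR, all 4 had an unadjusted p under 0.05 on the lower side, and DESeq2 called 5. Cholangiocyte markers, of bile duct cells, summed to 35.8, 77.7 and 217 CPM in WT mice and 108, 224 and 402 CPM in *Nod2*-/- mice. Of the 6 tested, 1 (*Sox9*, named after its values were seen) was higher past 5% FDR in edgeR.

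Of T cell, NK cell, B and plasma cell, sinusoidal endothelium and stellate cell markers, 0 passed 5% FDR in edgeR, with 0, 0, 1, 1 and 0 at an unadjusted p under 0.05 and 0, 0, 0, 1 and 0 called by DESeq2. Stellate cell markers summed to 212 to 424 CPM in WT mice and 235 to 313 CPM in *Nod2*-/- mice.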
